A study of Mus musculus with 9 samples.

Results

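CpG methylation was described here at 40 genes listed as imprinted, that is, genes known in the mouse to be expressed mainly from the copy inherited from 1 parent. The list was applied to the gene symbol that the deposited table assigns to each CpG by its closest transcription start site. It matched 2449 of the 911004 deposited CpGs, and 944 of these were covered by 10 or more reads in every one of the 9 libraries, out of 356320 such CpGs in all. Rtl1 had no CpG under its name, and Peg3 (6 CpGs) and Magel2 (15 CpGs) had none with that depth, which left 37 genes. The 944 CpGs were divided by their level in naive B cells, with the reads of the 3 libraries pooled: 250 lay at an intermediate level, from 30% to 70%, 481 lay over 70% and 213 under 30%. Intermediate CpGs were found at 26 genes, and 15 genes held 5 or more.

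Spleen cells of female C57Bl/6J mice, 10 weeks old and with no genetic change in any group, gave 3 libraries for each of 3 successive stages of the B lineage. The labels do not say which animals gave which library. Naive B cells (B220+ CD43-) were the untreated control. Plasmablasts (CD138+ with intermediate B220), the antibody-secreting stage that still divides, and plasma cells (CD138+ with low B220), the end stage of the lineage, were both induced with the bacterial lipopolysaccharide LPS and collected on day 3. The assay was reduced representation bisulfite sequencing, which reads methylation at CpGs near MspI cutting sites. The mice are inbred, so reads from the maternal and the paternal copy could not be told apart.

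At an imprinted gene a control region is methylated on the copy from 1 parent only. The mark is laid down in the egg or sperm, survives the erasure of other methylation in the early embryo and is kept through cell division in body tissues by the maintenance methyltransferase Dnmt1. Zfp57, a zinc finger protein that binds the methylated hexamer TGCCGC, protects it in the embryo. Where every cell of a pool carries the mark on 1 of its 2 copies, the pool reads at an intermediate level over a run of neighbouring CpGs. A pool in which some cells have lost methylation, or in which cells of different kinds are mixed, can read at the same level.

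The windows around 3 start sites where CpGs with an intermediate level lay are shown next, with the Phlda2 window as a contrast. Each runs from 250 bases before to 50 bases after a RefSeq start site in GRCm38.p6 and reads 5′ to 3′ on the gene's strand. The capitals mark the tested CpGs, which were found by matching the spacing of the deposited positions to the CG pairs of the window, since the deposited positions are on the older build mm9. The windows are chr17:12769657-12769956 (minus strand) for Igf2r, chr10:13090582-13090881 (plus strand) for Plagl1, chr12:109540746-109541045 (plus strand) for Meg3 and chr7:143502475-143502774 (minus strand) for Phlda2.
Igf2r: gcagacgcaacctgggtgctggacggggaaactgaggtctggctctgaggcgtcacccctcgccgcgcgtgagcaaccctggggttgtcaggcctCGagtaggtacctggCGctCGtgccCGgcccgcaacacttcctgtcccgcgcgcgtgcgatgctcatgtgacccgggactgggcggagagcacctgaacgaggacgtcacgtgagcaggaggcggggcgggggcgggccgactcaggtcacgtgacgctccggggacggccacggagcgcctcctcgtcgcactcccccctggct
Plagl1: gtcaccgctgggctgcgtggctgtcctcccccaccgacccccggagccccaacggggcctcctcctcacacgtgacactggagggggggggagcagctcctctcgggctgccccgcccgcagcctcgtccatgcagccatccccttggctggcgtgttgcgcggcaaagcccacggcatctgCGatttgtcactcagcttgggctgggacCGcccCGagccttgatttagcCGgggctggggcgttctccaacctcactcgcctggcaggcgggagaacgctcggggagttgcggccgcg
Meg3: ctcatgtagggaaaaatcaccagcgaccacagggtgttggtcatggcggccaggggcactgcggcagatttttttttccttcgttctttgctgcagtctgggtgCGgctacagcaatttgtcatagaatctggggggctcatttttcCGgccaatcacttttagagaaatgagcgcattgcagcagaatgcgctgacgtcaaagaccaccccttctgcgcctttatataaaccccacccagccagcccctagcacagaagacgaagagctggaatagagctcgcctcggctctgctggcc
Phlda2: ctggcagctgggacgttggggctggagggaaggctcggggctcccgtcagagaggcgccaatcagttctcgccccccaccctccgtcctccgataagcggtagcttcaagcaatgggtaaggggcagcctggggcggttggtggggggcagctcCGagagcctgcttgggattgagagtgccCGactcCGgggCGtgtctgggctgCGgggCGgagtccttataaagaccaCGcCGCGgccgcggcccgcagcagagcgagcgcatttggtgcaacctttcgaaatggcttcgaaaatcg

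Between the first 3 of these windows and the last the levels differed widely, although all are dense in CpGs, with 34, 26, 13 and 26 CG pairs. The 4 tested Igf2r CpGs, at -155 to -130 bp from the start, had pooled levels between 38.8% and 48.6% at the naive stage, between 44.4% and 56.9% in plasmablasts and between 34.6% and 40.3% in plasma cells. The 4 tested Plagl1 CpGs lay between 39.4% and 44.8% at the naive stage, between 43.2% and 53.3% in plasmablasts and between 21.6% and 24% in plasma cells. The 2 tested Meg3 CpGs lay at 36.0% and 40.5% at the naive stage, 45% and 60.9% in plasmablasts, and 26.2% and 35.2% in plasma cells. None of these 10 CpGs passed the test on its own in any comparison. The 9 tested CpGs of the Phlda2 window averaged 4.81% at the naive stage, 4.35% in plasmablasts and 3.08% in plasma cells. The hexamer TGCCGC, searched on both strands, was present in 10 of the 47 windows of 30 of the listed genes (21.3%), among them the Plagl1 and Meg3 windows shown, and in 3813 of all 32851 windows (11.6%).

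The 250 intermediate CpGs had a mean level of 45.2%, 50.6% and 51.7% in the naive replicates, 44.8%, 51.2% and 50.9% in the plasmablast replicates, and 41.8%, 32.2% and 32.1% in the plasma cell replicates, each in the order 1 to 3. The plasmablast values thus fell within or near the range of the naive values, and all 3 plasma cell values were below those of every other library, with plasma cells 1 much nearer to them than plasma cells 2 and 3. Plasma cells averaged 35.4% ± 5.52 against 49.2% ± 3.49 in naive B cells (SD, n = 3 each), a difference of -13.8 points. Plasmablasts averaged 49.0% ± 3.62 (SD, n = 3), which differed from naive B cells by -0.17 points. Leaving out plasma cells 2 and 3 together, a setting chosen after seeing the data, brought the plasma cell difference to -7.42 points, and plasma cells 1 set against naive B cells 1 alone differed by -3.45 points.

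Library properties moved with these values and their part in the results was not tested. Reads within 1000 bp of a start site made up 29.6% and 29.3% of all reads in plasma cells 2 and 3, and 22.2% to 25.5% in the other 7 libraries. Over the 78187 CpGs whose mean was under 5%, that background was 1.07% to 1.16% in plasma cells and 0.749% in naive B cells 1, but 2.08% to 6.11% in plasmablasts and naive B cells 2 and 3. Within the libraries of higher background, plasmablasts differed from naive B cells 2 and 3 by -2.16 points over the 250 CpGs, and within those of lower background plasma cells differed from naive B cells 1 by -9.82 points. Total reads over CpGs were 16037172 to 29948088 per library, and the median coverage of the 250 CpGs was 21 to 33 reads. These files hold no transcript levels, so the sorted cells were not checked against their markers, and fewer cells with methylation and less methylation per cell cannot be told apart.

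Beside the imprinted genes stood 2175 X-linked CpGs at the same intermediate level and 22039 intermediate CpGs on other autosomal genes. This pair of sets was added after seeing the data. In female cells CpGs can be methylated on the inactive X chromosome only, but whether these X-linked CpGs were of that kind was not tested. The X-linked CpGs averaged 45.1% ± 2.76 at the naive stage, 41.0% ± 2.84 in plasmablasts and 30.3% ± 4.62 in plasma cells, as mean ± SD of 3 libraries. The other autosomal CpGs averaged 51.7% ± 2.34 at the naive stage, 43.2% ± 2.10 in plasmablasts and 34.5% ± 2.79 in plasma cells. Taken library by library, the imprinted CpGs stood -3.84, -2.94 and -0.69 points from the other autosomal CpGs in naive B cells, 3.90, 6.20 and 7.26 points above them in plasmablasts, and 4.09, -1.04 and -0.35 points from them in plasma cells. The plasmablast gaps did not overlap those of naive B cells. Against the X-linked CpGs the imprinted CpGs were higher in all 9 libraries, by 3.24 to 5.14 points in naive B cells, 7.04 to 8.71 points in plasmablasts and 4.48 to 6.08 points in plasma cells. The sets differ in the share of their CpGs that lie in intermediate segments, which are defined below. Inside such segments plasmablasts differed from naive B cells by 0.73 points at imprinted, -3.03 at X-linked and -5.57 at other autosomal CpGs. Over the whole sets these differences were -0.17, -4.12 and -8.45 points. The sets were not compared by a test.

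**Figure D1:**
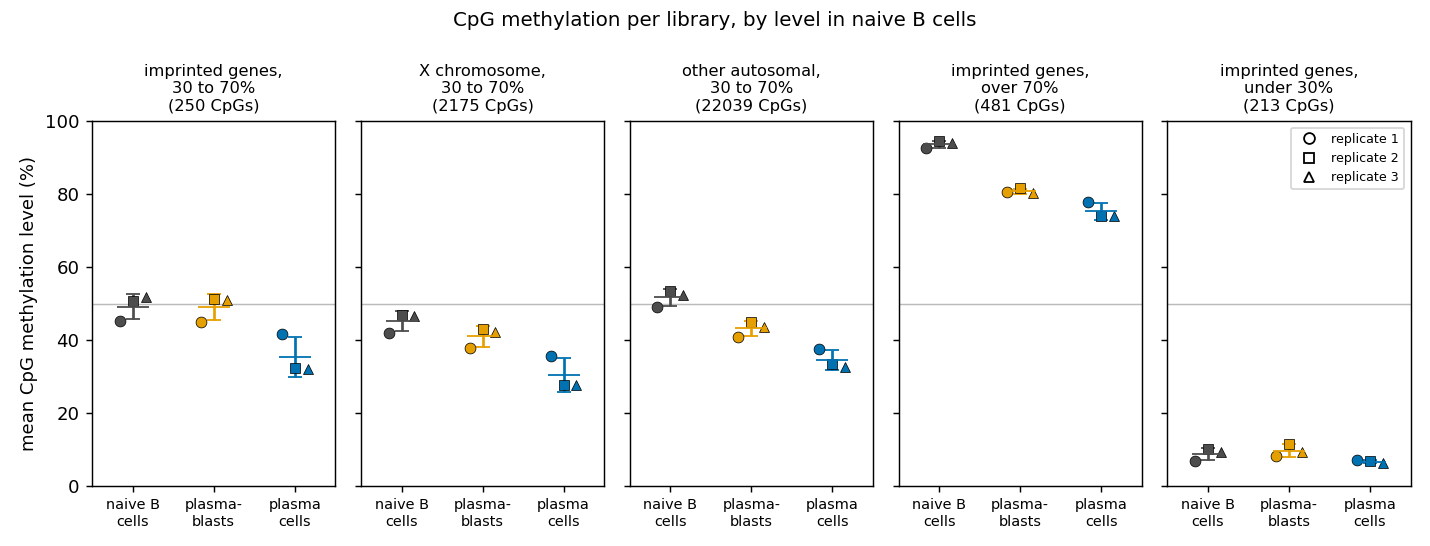
Mean CpG methylation level (%) of each library for 5 sets of CpGs, with the 3 stages on the horizontal axis of each panel; symbols are the 3 replicates, the long bar is the mean and the error bar is 1 SD. At the 250 intermediate CpGs of imprinted genes naive B cells and plasmablasts sit near 50% and plasma cells at 41.8%, 32.2% and 32.1%, whereas the 481 CpGs over 70% are already lower in plasmablasts, at 80.9% on average against 93.7% in naive B cells. CpGs over 70% of other genes, not drawn, averaged 81.9% in plasmablasts and 94.4% in naive B cells.

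Single CpGs were called at an adjusted p under 0.01 in a quasi-binomial model and a difference of at least 20 points. In plasma cells against naive B cells 40 of the 250 intermediate CpGs fell, where 28.8% of all 24464 intermediate CpGs fell. In plasmablasts against naive B cells 3 of 250 fell (1.2%), where 8.46% of all fell: 1 assigned to Nnat and 2 to Inpp5f. There 1.61% of the X-linked and 9.22% of the other autosomal intermediate CpGs fell. In plasma cells against plasmablasts, a contrast whose reads did not set the class, 7 of 250 fell against 1.85% of all. None rose in any of the 3 contrasts in this model, where 0.147% of all rose in plasma cells against naive B cells, 0.225% in plasmablasts against naive B cells and 0% in plasma cells against plasmablasts. At an unadjusted p under 0.05 a higher level was seen at 7 of the 250 in plasmablasts against naive B cells and at 0 in the contrasts with plasma cells. With each CpG's own spread in place of the shared estimate, no CpG of the listed genes was called lower in any contrast. The share over all CpGs is not given for that setting, so this does not set the listed genes apart. The median difference was -12.0 points in plasma cells against naive B cells (all intermediate CpGs -16.1), 1.23 points in plasmablasts against naive B cells (all -6.90) and -13.5 points in plasma cells against plasmablasts (all -8.73). With the library set (lower or higher background) as a term in the model, 2 of the 250 were called lower in plasma cells against naive B cells, 0 in plasmablasts against naive B cells and 0 in plasma cells against plasmablasts; all plasma cell libraries are in the lower set and all plasmablast libraries in the higher. Without plasma cells 2 and 3, 4 CpGs were called lower in plasma cells against naive B cells and 0 against plasmablasts. Leaving out a single library gave 15 and 17 calls in plasma cells against naive B cells without naive B cells 2 or 3, and 17 and 16 without plasma cells 2 or 3. The calls against plasmablasts numbered 0 and 1 without plasmablasts 2 or 3, 2 and 0 without plasma cells 2 or 3, and 12 without plasma cells 1, and those in plasmablasts against naive B cells numbered 0 without naive B cells 2 or plasmablasts 1. Shares of all intermediate CpGs are not given for these settings. The counts therefore cannot be set against the shares above, which hold for all 9 libraries in the main model.

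Because the naive reads also set the class, the contrasts were repeated with the class taken from naive B cells 1 (220 CpGs) and the naive level from the other naive libraries. The mean differences were then -16.0 points in plasma cells and -3.48 points in plasmablasts against naive B cells, with 43 and 6 CpGs called lower. The share of all CpGs called with this class is not given. At the limits of the class, the Nnat CpGs at chr2:157351711 and chr2:157322409 (mm9), both at 70% in naive B cells, were the last inside. They had 58.8% and 55.7% in plasmablasts and 40.5% and 42.6% in plasma cells, pooled. The Meg3 CpG at chr12:110784643, at 71.2% in naive B cells, was the first outside and had 74.6% in plasmablasts and 51.1% in plasma cells. At the lower limit, a Mkrn3 CpG at 30% in naive B cells lay inside, with 18.9% in plasma cells. Just outside lay a Kcnq1 CpG at 29.6% and an Inpp5f CpG at 29.5%, with 27.6% and 12.3% in plasma cells.

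The CpGs of the same genes outside the intermediate level took a course near that of all such CpGs. Of 694, 75 (10.8%) fell in plasmablasts against naive B cells, where 10.7% of all 331856 such CpGs fell. In plasma cells against naive B cells 186 (26.8%) fell, where 22.2% of all fell. All 75 and all 186 lay over 70% in naive B cells, which is 75 and 186 of 481 (15.6% and 38.7%, with backgrounds of 16.4% and 33.9%). The median naive level was 5.95% for the CpGs under 30% and 96.25% for those over 70%. A fall of 20 points was thus out of reach for most CpGs under 30%, and a rise of 20 points for most over 70%. The counts of falls and rises in these classes largely follow from that. In plasma cells against plasmablasts 7 of 694 fell, where 0.491% of all fell. None of the 694 rose, where 0.0515% of all rose in plasmablasts and 0.0368% in plasma cells against naive B cells, and 0.000904% in plasma cells against plasmablasts; at an unadjusted p under 0.05 a higher level was seen at 18, 2 and 5 CpGs in these contrasts. The 481 CpGs over 70% averaged 93.7% ± 1.01 at the naive stage, 80.9% ± 0.68 in plasmablasts and 75.3% ± 2.29 in plasma cells, as mean ± SD of 3 libraries. The CpGs over 70% of other genes took nearly the same course, at 94.4% ± 0.87, 81.9% ± 0.55 and 76.6% ± 2.43 in the same stages. The 213 CpGs under 30% averaged 8.68% ± 1.72 at the naive stage, 9.63% ± 1.77 in plasmablasts and 6.63% ± 0.44 in plasma cells. Of these, 0 fell in plasmablasts and 0 in plasma cells against naive B cells, where 0.0688% and 0.312% of all such CpGs fell, with 4 and 20 lower at an unadjusted p under 0.05; 1 fell in plasma cells against plasmablasts, where 0.154% of all fell. Over all 694 CpGs outside the intermediate level, 106 fell in plasma cells against naive B cells without plasma cells 2 and 3, and 0 against plasmablasts. The count of the 694 against plasmablasts was also 0 without plasmablasts 2 or plasma cells 3, 1 without plasmablasts 3 and 2 without plasma cells 2. Shares of all such CpGs are not given for these settings, so the counts cannot be set against the shares above.

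**Figure D2:**
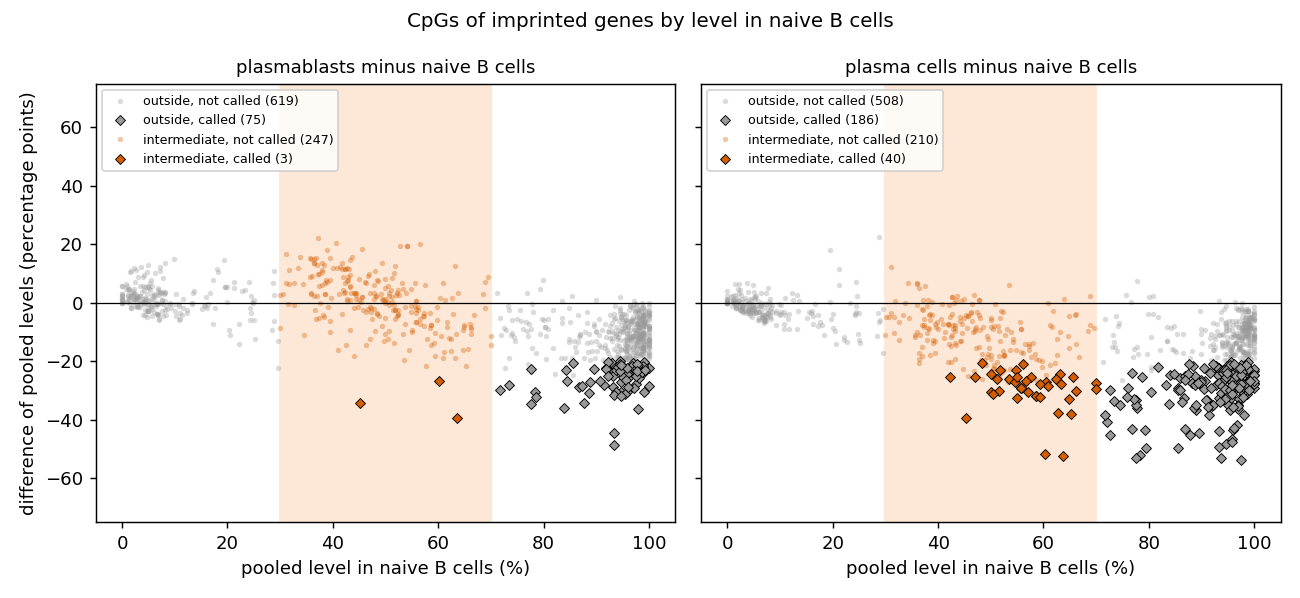
Difference of pooled levels (percentage points) from naive B cells against the pooled level in naive B cells (%), for plasmablasts on the left and plasma cells on the right; each point is 1 of the 944 CpGs, diamonds passed the test and the shaded band is the intermediate class. In plasmablasts 3 of 250 intermediate CpGs and 75 of 694 others passed, and in plasma cells 40 and 186 passed; all of these were lower than in naive B cells.

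The authors' deposited table of CpGs that differ between plasmablasts and naive B cells held 15 of the 944 CpGs, none of them intermediate, out of 11812 tested CpGs in that list (3.32% of all tested). The authors' deposited table for plasma cells and naive B cells held 135 of the 944, of which 6 were intermediate, out of 54498 (15.3% of all tested). All 15 and all 135 were also among the 78 and 226 of the 944 called lower here, where 10.5% and 22.6% of all tested CpGs fell.

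The position of the intermediate CpGs differed from that of other intermediate CpGs, as a description. Of the 250, 118 lay in exons, 47 in promoters, 60 in introns and 25 between genes, and 54.0% lay within 1000 bp of a start site against 21.3% of the other 24214 intermediate CpGs. They also clustered. Runs of at least 5 tested CpGs of 1 gene with gaps of at most 200 bp were joined into segments, and a segment was called intermediate if its pooled naive level was 30% to 70% and at least 80% of its CpGs were intermediate. The imprinted genes held 20 of the 320 intermediate segments (6.25%) but 54 of all 18750 segments (0.288%); X-linked genes held 106 of the 320 (33.1%). These 20 segments contained 64.4% of the 250 CpGs, whereas 7.55% of other intermediate CpGs lay in such segments.

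All 20 intermediate segments had a lower pooled level in plasma cells than in naive B cells and than in plasmablasts. Most other intermediate segments did too. Against naive B cells 105 of 106 X-linked and 181 of 194 other autosomal ones were lower, and against plasmablasts 101 and 183. With a threshold of 10 points at an adjusted p under 0.01, 6 of 20 fell in plasma cells against naive B cells, where 42.2% of all 320 fell. By set, 45 of 106 X-linked and 84 of 194 other autosomal segments fell there. In plasmablasts against naive B cells 0 of the X-linked and 17 of the other autosomal segments fell. None of the 20 fell or rose in plasmablasts against naive B cells in the same model, where 5.31% of all fell and 0% rose; at an unadjusted p under 0.05, 1 was lower and 1 higher. None rose in plasma cells in either contrast, where 0.312% of all rose against naive B cells. In plasma cells against plasmablasts 2 of 20 fell, where 2.19% of all fell. The median difference was -12.0 points in plasma cells against naive B cells (all 320 segments -13.0) and 0.57 points in plasmablasts against naive B cells (all -3.76). It was -14.6 points in plasma cells against plasmablasts (all -9.27). The 3 plasma cell libraries lay below all 3 naive libraries at 7 of the 20 segments, against 52.8% of all 320, and below all 3 plasmablast libraries at 9, against 38.8% of all. At 0 of the 20 did the 3 plasmablast libraries lie below all 3 naive libraries, against 16.2% of all. Without plasma cells 2 and 3 no segment was called in either contrast with plasma cells. The count against plasmablasts was 0 without plasmablasts 2, plasmablasts 3 or plasma cells 3, 1 without plasma cells 2, and 6, 4 and 5 without naive B cells 1, plasmablasts 1 and plasma cells 1. Shares of all 320 segments are not given for these settings. Over all 54 segments, intermediate or not, 18 fell in plasma cells and 6 in plasmablasts against naive B cells, where 31.8% and 17.8% of all 18750 fell, and 2 fell in plasma cells against plasmablasts, where 0.859% of all fell. None of the 54 rose, where 0.08% of all rose in plasma cells and 0.0907% in plasmablasts against naive B cells; 2 of the 54 were higher in plasmablasts than in naive B cells at an unadjusted p under 0.05. All coordinates that follow are on mm9, as the deposited table gives them.

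**Figure D3:**
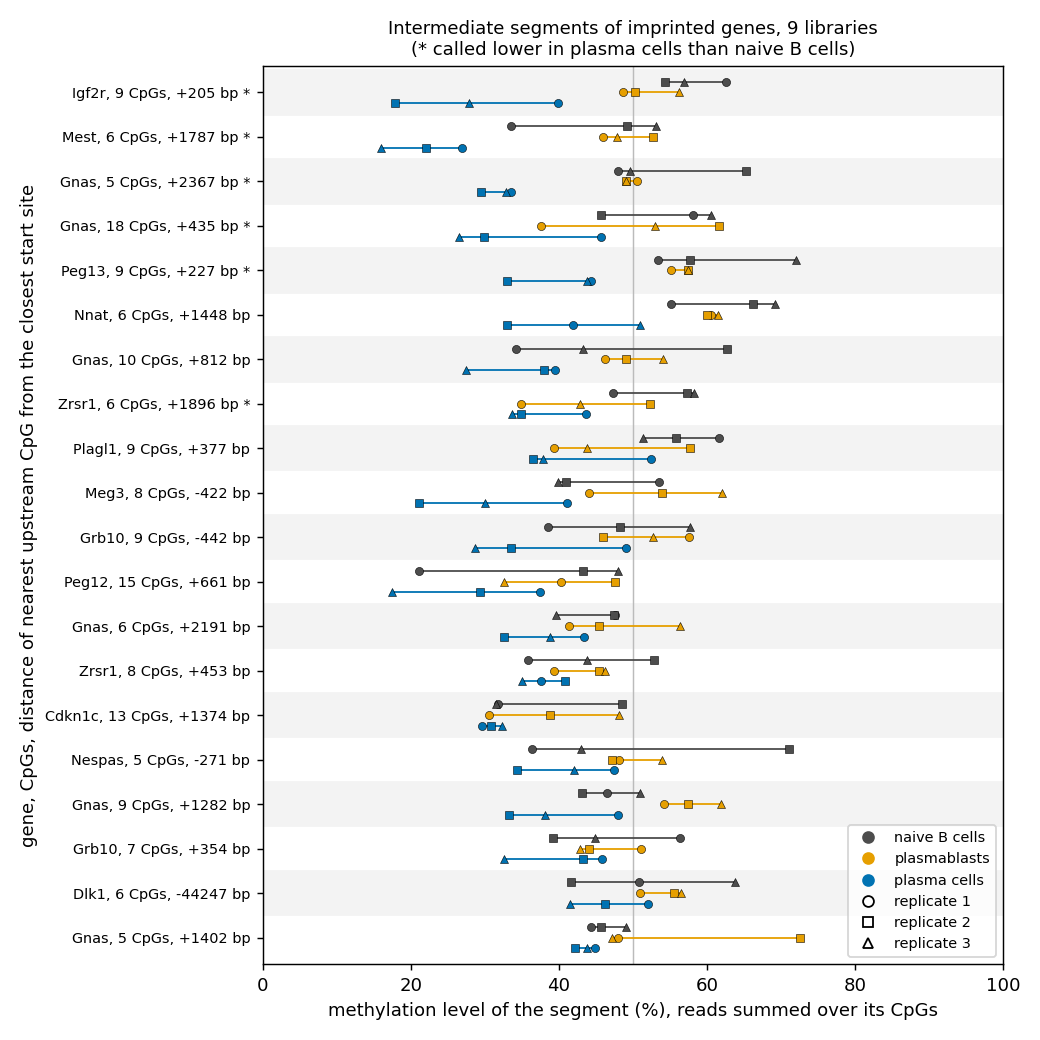
Methylation level (%) of the 20 intermediate segments of imprinted genes in the 9 libraries, 1 row a segment with its gene, CpG number and distance from the closest start site; colours are the 3 stages, symbols the replicates, the lines join the lowest and highest replicate, and an asterisk marks the 6 segments called lower in plasma cells than in naive B cells. Plasma cells lie left of naive B cells without overlap at 7 segments, with the lowest plasma cell value at Mest (16%).

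Among genes of growth factor signalling, the segment of Igf2r, the receptor that clears insulin-like growth factor 2, showed the largest difference of the 20 between plasma cells and naive B cells. It holds 9 CpGs in an exon at chr17:12962316-12962366, 205 to 255 bp after the start site. Its level was 62.5%, 54.4% and 56.9% in naive B cells, 48.6%, 50.3% and 56.2% in plasmablasts, and 39.8%, 17.9% and 27.8% in plasma cells (replicates 1 to 3). All plasma cell values were below all others. Plasma cells averaged 28.5% ± 11 and naive B cells 57.9% ± 4.17 (SD, n = 3 each), with -29.8 points between the pooled levels (quasi-binomial model with limma's prior, adjusted p = 2.26e-05). Against plasmablasts, at 51.7% ± 3.98, the difference was -24.5 points (adjusted p = 0.00649); this call was lost without plasmablasts 2 or 3 (adjusted p = 0.0455 and 0.0158) and without plasma cells 2 or 3 (0.0344 and 0.0546). Of the 18 tested Igf2r CpGs 14 were intermediate, and 7 of these fell in plasma cells. Airn, the noncoding antisense RNA that starts inside Igf2r and silences it, had 1 intermediate CpG, at 32.6% ± 7.69 in plasma cells and 34.1% ± 12.9 in naive B cells (SD, n = 3 each).

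Igf2 encodes the growth factor itself, and H19 is the noncoding RNA that shares its control region. The 5 intermediate CpGs of Igf2, 1 at its start and the others at -4553 to -4146 bp from it, had levels of 46.1%, 54.2% and 59.4% in naive B cells, 39.7%, 39.4% and 50.6% in plasmablasts, and 37.5%, 32.8% and 31.7% in plasma cells. The plasma cell values were all below the naive values, and 1 of the 5 fell by the test. A segment of 8 CpGs at chr7:149850877-149851671, with too many CpGs outside the class to count as intermediate, was at 32.5% ± 6.80 in plasma cells and 50.8% ± 7.36 in naive B cells and fell by 16.7 points (adjusted p = 0.00123 in the same model). H19 had 3 intermediate CpGs and 17 over 70%, with 6 of the latter in a segment at -21927 to -21722 bp from its start. Its locus level, the reads of all its tested CpGs summed, was 80.4%, 86.8% and 87.1% in naive B cells, 66.7%, 73.8% and 71% in plasmablasts, and 64.9%, 64.3% and 57.3% in plasma cells, and all values of both LPS stages lay below the naive values.

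Grb10, an adaptor protein that dampens insulin signalling, had 16 intermediate CpGs with a mean of 47.8%, 43.3% and 51.8% in naive B cells, 54.6%, 42.4% and 48.4% in plasmablasts, and 47.5%, 39.3% and 30.3% in plasma cells. Its values overlapped between all stages. The segment of 9 CpGs in its promoter at chr11:11926501-11926770 was at 38.5%, 48.3% and 57.7% in naive B cells, 57.6%, 45.9% and 52.7% in plasmablasts, and 49%, 33.5% and 28.7% in plasma cells, and the segment of 7 CpGs in an exon at chr11:11925922-11925972 was at 56.3%, 39.1% and 44.9% in naive B cells, 51%, 44% and 42.9% in plasmablasts, and 45.8%, 43.2% and 32.6% in plasma cells. Neither passed a test, with differences of -11 and -5.76 points in plasma cells against naive B cells. Another segment of Grb10, 10 CpGs at chr11:11937851-11938057 in a promoter, was nearly unmethylated, at 7.48% ± 2.87 in plasma cells and 9.58% ± 3.68 in naive B cells (SD, n = 3 each).

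Gnas, which encodes the stimulatory G protein alpha subunit, is a nested locus with several alternative first exons and the antisense transcript Nespas. It held the most intermediate CpGs of the listed genes, 62 of 88 tested, with a mean of 47.1%, 50.6% and 50.8% in naive B cells, 45.2%, 55.7% and 54.6% in plasmablasts, and 44.9%, 33.2% and 31.6% in plasma cells. The plasma cell values lay below all others, although plasma cells 1 was within 0.3 points of plasmablasts 1. Of the 62 CpGs, 7 fell in plasma cells against naive B cells, and 6 of the 20 intermediate segments lay at Gnas.

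The most 3′ of the 6, with 18 CpGs in an exon at chr2:174154045-174154282, was at 58.1%, 45.7% and 60.5% in naive B cells, 37.6%, 61.6% and 53% in plasmablasts, and 45.7%, 29.8% and 26.6% in plasma cells. The 3 plasma cell values lay below the lowest naive value, plasma cells 1 by less than 0.1 points, and the plasmablast values spread across both. Plasma cells averaged 34% ± 10.2 and naive B cells 54.8% ± 7.94 (SD, n = 3 each), -20.3 points between pooled levels (adjusted p = 0.00183 in the quasi-binomial model); the call was lost without naive B cells 1 (adjusted p = 0.0114) and without plasma cells 3 (0.0293). A segment of 5 CpGs in an intron at chr2:174112189-174112422 was at 48%, 65.3% and 49.6% in naive B cells, 50.5%, 49% and 49.1% in plasmablasts, and 33.5%, 29.5% and 32.8% in plasma cells. Its plasma cell values were below all others, and it fell by 23.1 points against naive B cells (adjusted p = 0.000157 in the same model).

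The other 4 Gnas segments did not pass a test. The 10 CpGs at chr2:174110634-174110890 were at 34.2%, 62.7% and 43.3% in naive B cells, 46.3%, 49% and 54.1% in plasmablasts, and 39.4%, 38% and 27.5% in plasma cells. The 5 CpGs at chr2:174111224-174111269 were at 44.3%, 45.7% and 49.1% in naive B cells, 48%, 72.5% and 47.1% in plasmablasts, and 44.9%, 42.1% and 43.8% in plasma cells. For both the plasma cell values were below all plasmablast values and overlapped with the naive ones. The 9 CpGs at chr2:174124643-174124856 were at 46.5%, 43.1% and 51% in naive B cells, 54.2%, 57.5% and 61.9% in plasmablasts, and 48%, 33.2% and 38.1% in plasma cells, with all plasmablast values above the naive ones and plasma cells 1 among the naive ones. The 6 CpGs at chr2:174125552-174125758 were at 47.5%, 47.5% and 39.7% in naive B cells, 41.4%, 45.5% and 56.4% in plasmablasts, and 43.4%, 32.6% and 38.8% in plasma cells. The Nespas segment, 5 CpGs in its promoter at chr2:174120990-174121209, was at 36.4%, 71.1% and 43% in naive B cells, 48.1%, 47.1% and 53.9% in plasmablasts, and 47.5%, 34.3% and 42% in plasma cells. Its naive values alone spanned over 30 points, wider than any difference between stages. By contrast 6 promoter CpGs at -956 to -911 bp from the closest start site, at chr2:174156121-174156166, were at 1.71% ± 0.950 in plasma cells and 1.76% ± 2.61 in naive B cells.

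**Figure D4:**
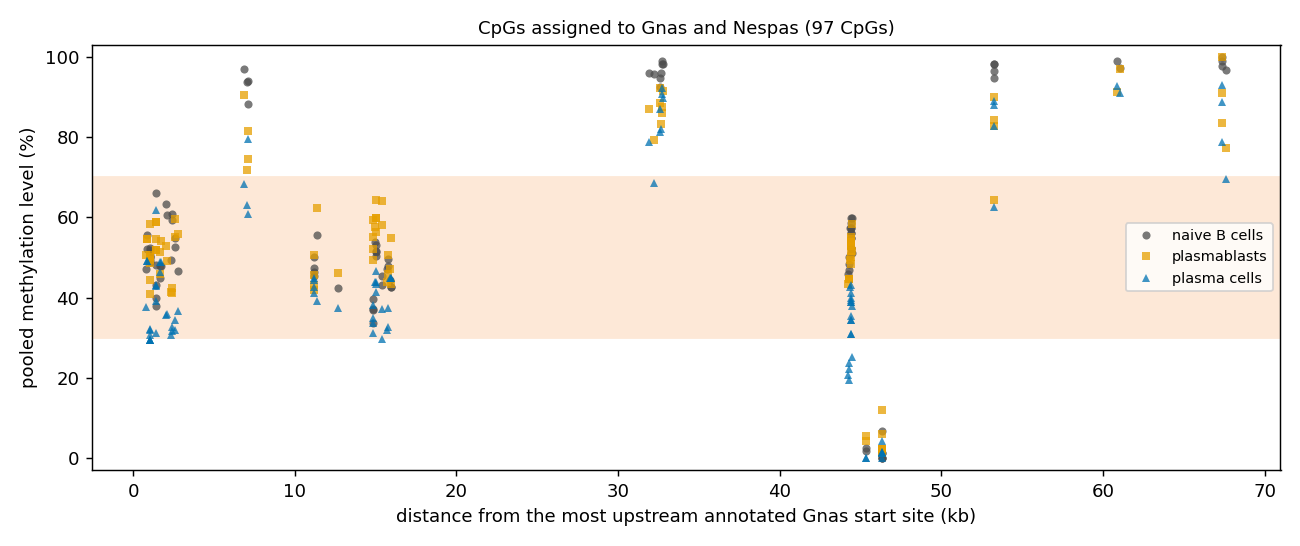
Pooled methylation level (%) of the 97 tested CpGs assigned to Gnas and Nespas against their distance from the most upstream annotated Gnas start site (kb); colours and symbols are the 3 stages and the shaded band is the intermediate class. CpGs in the band form runs near the start site, a little further downstream and just upstream of an unmethylated run, and the points of plasma cells are mostly the lowest of the 3 in the band.

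Rasgrf1, an exchange factor that activates Ras, differed from these in that its intermediate CpGs lay far from its start. Of 5, 4 lay at -31697 to -31460 bp from the start and 1 in an intron. Their mean was 50.9%, 62.8% and 59.2% in naive B cells, 41.8%, 53.4% and 50.05% in plasmablasts, and 31%, 24.5% and 28.2% in plasma cells. The plasma cell values were below all others, and all 5 CpGs fell in plasma cells against naive B cells. The CpG at chr9:89772915 was at 41%, 68.2% and 83.3% in naive B cells, 32%, 71.4% and 75% in plasmablasts, and 29.7%, 12% and 29.7% in plasma cells, and it also fell against plasmablasts, by 33.7 points between pooled levels. Its naive replicates differed by over 40 points. The 22 CpGs of Rasgrf1 in 2 promoter segments were at 1.62% ± 1.18 and 4.07% ± 0.51 in plasma cells and 4.81% ± 2.78 and 5.42% ± 0.74 in naive B cells.

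Dlk1, a membrane ligand related to those of Notch, and Meg3, a noncoding RNA, share a control region between them on chromosome 12. Dlk1 had 9 intermediate CpGs with a mean of 52.6%, 45% and 59.8% in naive B cells, 46.6%, 55.1% and 55.5% in plasmablasts, and 52.2%, 38.4% and 37.6% in plasma cells. Its values overlapped, although 3 of the 9 CpGs fell in plasma cells. Its intermediate segment, 6 CpGs at chr12:110646785-110647153, lies at -44247 to -43879 bp from the start and was at 50.8%, 41.6% and 63.8% in naive B cells, 50.9%, 55.6% and 56.5% in plasmablasts, and 52.1%, 46.2% and 41.5% in plasma cells, with no call. The 14 intermediate CpGs of Meg3 had a mean of 56%, 48.6% and 45.1% in naive B cells, 49.9%, 54.7% and 62.2% in plasmablasts, and 46.2%, 25.8% and 32.9% in plasma cells. The Meg3 segment of 8 CpGs across the start at chr12:110778783-110779285 was at 53.5%, 41% and 39.9% in naive B cells, 44.1%, 53.9% and 62.1% in plasmablasts, and 41.2%, 21.1% and 30% in plasma cells. Its plasma cell values lay below all plasmablast values, by -21.3 points between pooled levels, which did not pass the test (adjusted p = 0.0168 in the same model). A segment just upstream, 5 CpGs at chr12:110778263-110778529, fell by 22.2 points in plasma cells against naive B cells, at 51.2% ± 6.90 against 73.7% ± 4.05 (SD, n = 3 each, adjusted p = 0.00012). Dio3, a thyroid hormone deiodinase at the far end of this cluster, had 12 CpGs in its promoter at 5.97% ± 0.832 in plasma cells and 6.22% ± 2.86 in naive B cells. Rian and Mirg, noncoding RNAs of the cluster, had 1 tested CpG each, both over 70% in naive B cells and neither called.

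Of the other noncoding RNAs, Peg13 lies inside Trappc9 and had 16 intermediate CpGs at 46.3%, 54.2% and 58.3% in naive B cells, 49.1%, 58.1% and 54.7% in plasmablasts, and 39.3%, 38% and 40.2% in plasma cells. Its segment of 9 CpGs at chr15:72640310-72640526, 227 to 443 bp from the start, was at 53.3%, 57.8% and 72% in naive B cells, 55.1%, 57.4% and 57.4% in plasmablasts, and 44.3%, 33% and 43.8% in plasma cells. The plasma cell values were below all others, and the segment was at 40.4% ± 6.36 in plasma cells against 61% ± 9.78 in naive B cells, a fall of 18.7 points (SD, n = 3 each, adjusted p = 0.000521 in the quasi-binomial model). Kcnq1ot1, the RNA that silences its cluster on chromosome 7, had 1 intermediate CpG of 26 tested, and 12 of its other CpGs fell in plasma cells. It had segments at -32069 to -32019 bp and at -76637 to -76436 bp from its start, so its locus level includes distant CpGs. Its locus was at 72.4%, 84.8% and 84.8% in naive B cells, 67.7%, 68.1% and 62.8% in plasmablasts, and 64.2%, 51.2% and 59.7% in plasma cells, lower in plasma cells by 22.3 points (adjusted p = 0.000819), and no value of either LPS stage reached the lowest naive value; the call was lost without plasma cells 2 and 3 (adjusted p = 0.0410).

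Mest, an enzyme of the hydrolase fold expressed from the paternal copy, gave the largest difference of the 20 between plasma cells and plasmablasts. All 6 of its tested CpGs were intermediate and formed 1 segment, in an intron at chr6:30685294-30685508. It was at 33.5%, 49.2% and 53.1% in naive B cells, 46%, 52.7% and 47.9% in plasmablasts, and 26.9%, 22% and 16% in plasma cells. No plasma cell value reached the lowest value of another stage, and naive B cells 1 stood below the other naive libraries. Plasma cells averaged 21.6% ± 5.51, against 48.8% ± 3.46 in plasmablasts and 45.3% ± 10.4 in naive B cells (SD, n = 3 each). The segment fell by 28.1 points against plasmablasts (adjusted p = 0.00228 in the quasi-binomial model) and by 23.9 points against naive B cells (adjusted p = 0.00014). The call against plasmablasts was lost without plasmablasts 2 or 3 (adjusted p = 0.0301 and 0.0105) and without plasma cells 3 (0.0433).

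Nnat, a small membrane protein of the endoplasmic reticulum, lies in an intron of Blcap. Its 10 intermediate CpGs were at 59.98%, 64.1% and 66.1% in naive B cells, 54.6%, 59.5% and 61% in plasmablasts, and 46.6%, 32.8% and 44.9% in plasma cells. All plasma cell values were lower, and 4 of the 10 fell. The CpG at chr2:157348381, at -37464 bp from the start, had the largest fall of these at 55.8%, 65.8% and 56.4% in naive B cells, 19.2%, 42.6% and 31.8% in plasmablasts, and 11.9%, 8.70% and 5.13% in plasma cells, and it was called in all 3 contrasts. The Nnat segment of 6 CpGs at chr2:157387325-157387513 was at 55.1%, 66.2% and 69.2% in naive B cells, 60.6%, 60% and 61.5% in plasmablasts, and 41.8%, 33% and 51% in plasma cells. The plasma cell values were below all others, but the differences of -17.1 points from naive B cells and -17.5 from plasmablasts did not pass (adjusted p = 0.0124 and 0.0301 in the same model).

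The next genes encode regulators of transcription, splicing and the cell cycle. Plagl1, a zinc finger transcription factor, had 12 intermediate CpGs at 46%, 51.2% and 53.3% in naive B cells, 41.2%, 53.4% and 45.1% in plasmablasts, and 46.7%, 25.1% and 32.6% in plasma cells. Plasma cells 2 and 3 were the lowest, and plasma cells 1 overlapped with both other stages. Its segment of 9 CpGs in an intron at chr10:12780688-12780873 was at 61.6%, 55.9% and 51.4% in naive B cells, 39.3%, 57.7% and 43.8% in plasmablasts, and 52.5%, 36.5% and 37.8% in plasma cells and did not pass a test (-14.5 points in plasma cells against naive B cells). Zrsr1, a splicing factor gene that sits in an intron of Commd1, was intermediate at all 17 of its tested CpGs, at 40.1%, 52.9% and 51.5% in naive B cells, 39.9%, 49% and 44.5% in plasmablasts, and 39.1%, 33.2% and 31.8% in plasma cells. Every plasma cell value was below every naive value. Its segment of 6 CpGs at chr11:22873926-22874116 was at 47.3%, 57.3% and 58.3% in naive B cells, 34.8%, 52.4% and 42.8% in plasmablasts, and 43.7%, 34.9% and 33.7% in plasma cells, with plasma cells below naive B cells by 14.8 points (adjusted p = 0.00458). That call was lost without naive B cells 2 or 3 (adjusted p = 0.0226 and 0.0192) and without plasma cells 2 or 3 (0.0166 and 0.0344). Its other segment, 8 CpGs at chr11:22872483-22872625, was at 35.9%, 52.9% and 43.8% in naive B cells, 39.3%, 45.5% and 46.3% in plasmablasts, and 37.6%, 40.8% and 35% in plasma cells with no call. Commd1 itself had 5 CpGs under 30% and 1 over 70%.

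Cdkn1c, the cyclin-dependent kinase inhibitor p57, had 22 intermediate CpGs of 61 tested and none of the 22 was called in any contrast. They were at 32.8%, 48.9% and 38% in naive B cells, 35.5%, 45% and 46.6% in plasmablasts, and 30.2%, 28.8% and 30.9% in plasma cells. The plasma cell values lay below all others and within about 2 points of each other. Its segment of 13 CpGs at chr7:150645354-150645580 was at 31.8%, 48.6% and 31.6% in naive B cells, 30.6%, 38.7% and 48.1% in plasmablasts, and 29.6%, 30.8% and 32.3% in plasma cells, with naive B cells 1 and 3 near the plasma cell values. The 17 Cdkn1c CpGs over 70% were at 92.4%, 94.2% and 95.4% in naive B cells, 73.7%, 77.7% and 74.8% in plasmablasts, and 66.6%, 65.4% and 68.3% in plasma cells, with both LPS stages below naive B cells, and 10 CpGs outside the class fell in plasma cells. Phlda2, a growth-restraining gene beside Cdkn1c, had 40 CpGs under 30%, and its segment of 39 CpGs was at 5.22% ± 1.29 in plasma cells and 6.78% ± 0.525 in naive B cells. Ascl2, a transcription factor of the same cluster, was at 51.3%, 61.1% and 58.4% in naive B cells, 42.3%, 47.9% and 50.9% in plasmablasts, and 38.4%, 29.8% and 35.5% in plasma cells over its locus, with the stages not overlapping in that order, and fell by 22.0 points in plasma cells against naive B cells (adjusted p = 0.000348 in the same model). Kcnq1, the potassium channel gene that Kcnq1ot1 overlaps, had 25 CpGs under 30%, 22 of them in 1 promoter segment of 23 CpGs, the other of which was intermediate. The segment was at 5.35% ± 1.46 in plasma cells and 6.56% ± 1.17 in naive B cells. The 11 Kcnq1 CpGs over 70% were at 92.5%, 92.2% and 94.3% in naive B cells, 75.8%, 79.3% and 81.7% in plasmablasts, and 73.9%, 60.8% and 66.2% in plasma cells.

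Peg12, a relative of the Frat proteins that bind the kinase Gsk3, and Mkrn3, a ring finger gene, belong to the cluster on chromosome 7 that corresponds to the human Prader-Willi region. Peg12 had 16 intermediate CpGs at 29.3%, 47.2% and 55.1% in naive B cells, 47.7%, 52.4% and 43.3% in plasmablasts, and 45.5%, 35.4% and 27.7% in plasma cells, and its segment of 15 CpGs at chr7:69608405-69608734 was at 21.1%, 43.2% and 48% in naive B cells, 40.3%, 47.6% and 32.6% in plasmablasts, and 37.4%, 29.4% and 17.4% in plasma cells. Naive B cells 1 lay between plasma cells 3 and plasma cells 2 there, the stages overlapped and no CpG of the 16 was called; without naive B cells 1 the segment passed the test in plasma cells against naive B cells (-17.4 points, adjusted p = 0.00305 in the same model). The 5 intermediate CpGs of Nespas were likewise uncalled. Mkrn3 had 3 tested CpGs, all intermediate, at 25.3% ± 1.60 in plasma cells and 33.4% ± 10.6 in naive B cells. Snrpn, a splicing protein gene of this cluster, had 3 tested CpGs, all over 70%, at 81.1%, 91.1% and 90.5% in naive B cells, 69.9%, 66.2% and 74.4% in plasmablasts, and 56.7%, 54.9% and 43.9% in plasma cells, and all 3 fell in plasma cells. Ndn had 4 CpGs over 70% in naive B cells and none was called.

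Over the 15 genes with at least 5 intermediate CpGs, the mean of these CpGs was lower in plasma cells than in naive B cells at 15, by 7.68 to 29.7 points, and the 3 plasma cell libraries lay below all 3 naive libraries at 9 of them. Of all 1288 genes with at least 5 intermediate CpGs, 98.8% had a lower mean in plasma cells than in naive B cells and 80.3% had all plasma cell libraries below all naive libraries. Against plasmablasts the mean was also lower at all of the 15, by 8.63 to 28.2 points, with 11 not overlapping, where 97.1% of all 1288 were lower and 53.1% did not overlap. In plasmablasts against naive B cells it was lower at 8 of 15, with differences of -10.0 to 6.21 points, and at 0 genes did the libraries not overlap, where 87.9% of all 1288 were lower and 39.8% had all plasmablast libraries below all naive libraries. Of all 26 genes with an intermediate CpG, the mean was lower in plasma cells than in naive B cells at 26, against 95.4% of all 7337 such genes.

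At the listed genes outside the 15, most tested CpGs lay over 70% in naive B cells or under 30%. Loci, tested on the summed reads of 5 or more CpGs, were available for 30 genes, and a call needed 5 points and an adjusted p under 0.01. In plasmablasts against naive B cells 6 of 30 fell, where 24.6% of all 14220 loci fell, and in plasma cells against naive B cells 21 of 30 fell, where 67% of all fell. No locus rose, where 0.00703% of all rose in plasmablasts against naive B cells; 0 of the 30 were higher in either contrast with naive B cells at an unadjusted p under 0.05. In plasma cells against plasmablasts 0 of 30 passed and 0% of all, with 17 of 30 lower at an unadjusted p under 0.05 and 7 called lower by limma on unweighted means. The 6 that fell in plasmablasts were H19, Usp29, Peg10, Sgce, Ppp1r9a and Slc38a4. The number was 11 without naive B cells 1, where Dlk1, Nnat, Peg13, Inpp5f, Kcnq1ot1 and Trappc9 also passed and Peg10 did not, 3 without naive B cells 3 and 2 without naive B cells 2 or any 1 plasmablast library, and the plasma cell count was 14 without plasma cells 3 and 5 without plasma cells 2 and 3. Shares of all loci are not given for these settings.

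Slc38a4, an amino acid transporter, had the most CpGs of these, 79 of 82 over 70%. Its locus was at 93.3%, 93.3% and 93.4% in naive B cells, 82.4%, 83.1% and 82.2% in plasmablasts, and 81.2%, 77.4% and 77.1% in plasma cells. The stages did not overlap, and the naive replicates agreed to within 0.2 points. It fell by 10.7 points in plasmablasts and by 14.6 points in plasma cells against naive B cells (adjusted p = 0.00033 and 1.71e-05 in the quasi-binomial model). Its 3 intermediate CpGs were at 53.7% ± 9.57 in plasma cells and 55.3% ± 3.58 in naive B cells. Ppp1r9a, which encodes the actin-binding protein neurabin, had a locus level of 92.4%, 89.3% and 91.5% in naive B cells, 77.3%, 76% and 79.1% in plasmablasts, and 72.8%, 69.9% and 69.5% in plasma cells, again with no overlap between stages, and Trappc9, a subunit of a vesicle tethering complex, one of 59.7%, 78% and 76.6% in naive B cells, 60.4%, 64.5% and 66.9% in plasmablasts, and 55%, 45% and 46.9% in plasma cells. Trappc9 fell in plasma cells, at 48.9% ± 5.31 against 71.4% ± 10.2 in naive B cells, and the call was lost without plasma cells 3 (adjusted p = 0.0135).

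Peg10, a gene derived from a retrotransposon, and Sgce, the sarcoglycan gene beside it, were at 97.7%, 97.8% and 95.7% in naive B cells, 87.4%, 87.6% and 85.4% in plasmablasts, and 87.1%, 88% and 87.5% in plasma cells and at 97.6%, 96.3% and 94.8% in naive B cells, 84%, 84.3% and 85.1% in plasmablasts, and 82.8%, 82.7% and 75.1% in plasma cells. Peg10 is a case where plasma cells were no lower than plasmablasts. Usp29, a ubiquitin protease, was at 83.8%, 84.4% and 88.4% in naive B cells, 67.1%, 71.5% and 70.8% in plasmablasts, and 64.2%, 64.8% and 62.2% in plasma cells. Inpp5f, a phosphoinositide phosphatase, had 3 intermediate CpGs at 44.3%, 48% and 46.2% in naive B cells, 9.62%, 21.6% and 35.2% in plasmablasts, and 18.7%, 7.58% and 15.9% in plasma cells, below naive B cells in every library of both LPS stages; 2 of them, 27 bp apart in the promoter, fell in plasmablasts. At these, naive B cells had 11 to 17 reads a library. Impact and Zim1 had 2 and 1 tested CpGs, all over 70%; the Zim1 CpG fell in plasma cells.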

How the data were processed

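Reduced representation bisulfite sequencing libraries (3 each of plasma cells, plasmablasts and naive B cells) were analysed from 1 table of CpGs. The authors deposited, per CpG and library, the count of methylated and of unmethylated reads and the methylation fraction made from them; per the submitters' processing notes reads were aligned with Bismark and Bowtie2 to mm9, with versions not given in the sources used here. Counts were tested, and the deposited fractions were used only to check them. The gene, region and distance to the closest start site are the authors' deposited annotation.

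CpGs with at least 10 reads in all 9 libraries were fitted with a quasi-binomial logistic model, 1 level per stage, for CpGs, loci (at least 5 CpGs of 1 gene) and segments. Dispersions were shrunk to a common prior with limma's fitFDist (limma 3.58.1, R 4.3.3; Python 3.11.15, numpy 2.4.6, pandas 2.3.3, scipy 1.17.1, matplotlib 3.10.9) and never set below 1, and p-values were adjusted by Benjamini-Hochberg over all features of a kind. For single CpGs the prior alone sets the spread (dispersion 1.27), so a CpG's own replicate spread does not enter its p. A call needed an adjusted p under 0.01 and 20 points for a CpG, 10 for a segment and 5 for a locus. Printed levels are unweighted means of library levels ± SD; tested differences compare pooled reads. The model was also run on simulated counts in which a small set of CpGs was lowered in plasma cells only. The broad loss and the background differences of the real libraries were not simulated, so that run does not bear on them.

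Genes with at least 5 intermediate CpGs, the 6 others with most called CpGs and all intermediate segments are given for every library. Members and lists were chosen with earlier results of these data known. The labels do not state separate animals, so p-values of loci and segments measure the spread between libraries, while those of single CpGs rest on the shared prior. Median coverage of tested CpGs was 24 to 36 reads per library, and total reads were 16037172 to 29948088. Replicates correlated at 0.956 to 0.986 across CpGs and none were duplicates. Alternatives were coverage minimums, class limits, library sets, dispersion, a replicate block, segment gaps and leaving out each library. Promoter windows are RefSeq's (GRCm38.p6).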

Additional observations from a re-analysis of the deposited data

How the results depend on the processing

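With each library left out in turn, intermediate CpGs called lower numbered 15 to 59 in plasma cells against naive B cells (40 with all), 0 to 3 in plasmablasts against naive B cells (3 with all) and 0 to 12 in plasma cells against plasmablasts (7 with all). In the same order, the ranges outside the intermediate level were 165 to 196, 56 to 78 and 0 to 10. The mean differences at intermediate CpGs ranged between -17.0 and -12.2, -2.16 and 1.92, and -16.8 and -12.0 points. Loci called lower numbered 14 to 26, 2 to 11 and 0 to 9, and intermediate segments 5 to 9, 0 to 0 and 0 to 6. Without plasma cells 2 and 3, chosen after seeing the data, plasma cells against naive B cells gave 4 intermediate CpGs, 106 others, 5 loci, 0 segments and a mean difference of -7.42 points, and plasma cells against plasmablasts gave 0 intermediate CpGs, 0 others, 0 segments and -7.25 points. Naive B cells 1 and plasma cells 1 alone differed by -3.45 points. With a coverage minimum of 20 the intermediate counts were 16, 1 and 4 in these contrasts (plasma cells against naive B cells, plasmablasts against naive B cells, plasma cells against plasmablasts), the others 60, 26 and 3, and the segments 2 and 0 in the contrasts with plasma cells. With the library set (low or high background) as a term they were 2, 0 and 0, then 69, 26 and 0, then segments 2 and 0, with 10 loci called in plasmablasts. With each CpG's dispersion unmoderated all 6 counts of CpGs were 0. Limits of 40 to 60 gave 26, 1 and 3 intermediate CpGs and 11 others called in plasma cells against plasmablasts. A class set by naive B cells 1 gave 6 intermediate CpGs lower in plasmablasts. A minimum difference of 10 points gave 166 other CpGs lower in plasmablasts. A common dispersion gave 9 loci and 9 segments in plasma cells against plasmablasts, and unweighted means in limma 14 loci in plasmablasts against naive B cells and 7 in plasma cells against plasmablasts. A gap of 100 bp within a segment gave 1 segment in plasma cells against naive B cells and 0 against plasmablasts. By construction, fewer CpGs enter with a coverage minimum of 20, fewer segments with a gap of 100 bp, and fewer CpGs are intermediate with limits of 40 to 60; for the others the cause was not tested. No result changed direction past a threshold under these settings. All counts in this paragraph are of the listed genes, without the share of all features called under the same setting. A change in such a count is therefore not a result about the listed genes in particular.

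The replicate number as a block left 2 loci called lower in plasmablasts against naive B cells in place of 6, and moved no other count by over 1.5 times. Deviations of same-numbered libraries correlated at -0.0287 to 0.0302, and those of differently numbered libraries at -0.0368 to 0.0419. Counting error enters every deviation, so these values cannot decide whether a number stands for a shared animal or preparation. The labels do not say. The median coverage of 21 to 33 reads at a CpG limits the precision of single CpGs.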

Other observations

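Among 44 further genes listed as imprinted, 38 had a tested CpG and 43 of their 640 CpGs were intermediate, of which 11 fell in plasma cells and 1 in plasmablasts against naive B cells (25.6% and 2.33%, where 28.8% and 8.46% of all intermediate CpGs fell). Zdbf2, a zinc finger gene that is methylated on the paternal copy upstream of its start, had the most, 16, at 45.8%, 56.7% and 49.9% in naive B cells, 46.2%, 48.4% and 44.3% in plasmablasts, and 44.7%, 34.3% and 27.5% in plasma cells. Its segment of 5 CpGs, at 31.8% ± 6.85 in plasma cells and 52.9% ± 10.4 in naive B cells (SD, n = 3 each), fell by 22.5 points between pooled levels (adjusted p = 0.000734 in the quasi-binomial model), and its segment of 9 CpGs did not pass (-10.1 points). Klf14, a transcription factor gene of the Mest cluster, had 5 intermediate CpGs at 39.8%, 48.7% and 32.5% in naive B cells, 36.4%, 38.3% and 52.3% in plasmablasts, and 30.2%, 29.6% and 28.5% in plasma cells, with all plasma cell values below all others. Th, which encodes tyrosine hydroxylase near Ascl2, had 5 at 49.4%, 49.4% and 60.7% in naive B cells, 38.2%, 47% and 40.6% in plasmablasts, and 31.7%, 34.5% and 37% in plasma cells, and the stages did not overlap. Sfmbt2, a Polycomb gene, had 4 at 43.5%, 47.7% and 41.4% in naive B cells, 44.4%, 39.6% and 41.1% in plasmablasts, and 28.3%, 20.4% and 25.1% in plasma cells, with plasma cells below the other stages. Blcap, which surrounds Nnat, had 3 at 58.7%, 61.8% and 56.5% in naive B cells, 48.8%, 53.2% and 51% in plasmablasts, and 41.1%, 38.6% and 44.7% in plasma cells. Qpct, a glutaminyl cyclase gene, had 2 at 37%, 30% and 45.5% in naive B cells, 25%, 34.5% and 23.3% in plasmablasts, and 43.3%, 40% and 39.5% in plasma cells, where all 3 plasma cell values lay above 2 of the 3 naive values. Gpr1 also had 2, and Qpct was taken for its larger number of tested CpGs.

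Of 24 listed factors that set or keep imprints, all with a tested CpG, 21 formed loci, and 13 fell in plasma cells and 6 in plasmablasts against naive B cells (61.9% and 28.6%, near the 67% and 24.6% of all loci). The factors shown next were chosen for the most CpGs called in plasma cells against naive B cells, so their falls follow from the choice. Smchd1, a structural chromosome protein that acts at imprinted genes and the inactive X chromosome, had the most. Of its 69 tested CpGs 23 were lower in plasma cells, where 22.6% of all tested CpGs fell. Its locus was at 77.5%, 74.9% and 76.4% in naive B cells, 63.8%, 67.7% and 66.9% in plasmablasts, and 63%, 54% and 51.8% in plasma cells. The loci of the methylcytosine dioxygenases Tet1 and Tet2 were at 43.3%, 55.8% and 49.3% in naive B cells, 37.3%, 42.7% and 44.9% in plasmablasts, and 34.6%, 27.1% and 29.5% in plasma cells and at 87.8%, 88.8% and 87.1% in naive B cells, 62.5%, 67.5% and 67.5% in plasmablasts, and 65.7%, 55.2% and 54.7% in plasma cells. The 5 intermediate CpGs of Tet2 were at 56.6%, 64.7% and 51.4% in naive B cells, 18%, 21.8% and 11.8% in plasmablasts, and 19.1%, 12.1% and 14.3% in plasma cells, far lower in both LPS stages, with no overlap with naive B cells. Dppa3, which shields methylation in the early embryo, was at 81.2%, 83.8% and 83% in naive B cells, 69.7%, 72.9% and 69.1% in plasmablasts, and 64.9%, 62.5% and 57.4% in plasma cells. These are methylation levels and give no transcript level.

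Loci of markers of the B lineage and of other blood cells were also tested, with the sorted cells' own identity not shown by them. B cell markers gave 5 loci with 4 lower in plasma cells and 2 in plasmablasts against naive B cells, plasma cell markers 4 with 4 and 1, T cell markers 3 with 3 and 1, and myeloid markers 2 with 1 and 1; over all loci 67% were lower in plasma cells and 24.6% in plasmablasts. Irf4, a transcription factor that plasma cells need and which was named after its values were seen, was at 21.8%, 44.1% and 41% in naive B cells, 8.65%, 13% and 10.6% in plasmablasts, and 5.11%, 1.29% and 2.43% in plasma cells.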
